A study of Mus musculus with 2 samples.

Results

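The nuclear genes for the subunits of complex III, complex IV and ATP synthase were followed in single nuclei of the mouse brainstem. Members were all genes of the count table whose symbol starts with Uqcr, Atp5 or Cox4 to Cox8, with pseudogene symbols left out. This gave 42 of the 25556 genes, 8 of complex III, 17 of complex IV and 17 of ATP synthase. Of the 42 members, 41 held at least 20 UMIs in the libraries together and were compared between genotypes. *Cox6a2* had 3 WT and 10 HET UMIs and is given by its counts alone. A UMI, or unique molecular identifier, marks 1 captured RNA molecule, and levels are given as CPM, counts scaled to a total of 1e+06 UMIs in the library or cluster.

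Nuclei were profiled from the brainstem of 1 WT and 1 HET mouse, both female and 41 days old. The HET mouse carried the *Scn1a* knock-in allele A1783V beside a wild-type copy (Scn1a A1783V/WT), a model of Dravet syndrome. It came from a floxed *Scn1a* sire and a Sox2-Cre dam, a driver that recombines in the early embryo, and the WT mouse was a littermate without the mutation. Both were on a C57Bl6 background and neither was treated. Each genotype had 1 library, so nothing could be tested between genotypes. The 95% intervals given in brackets cover counting error only, and a difference larger than its interval may still be a difference between these libraries rather than between genotypes. Log2 ratios divide the HET level by the WT level and are negative where HET was lower, and a gene was counted as lower or higher when its level differed by at least 1.5-fold.

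Complex III passes electrons from ubiquinol to cytochrome c, complex IV passes them from cytochrome c to oxygen, and both move protons across the inner mitochondrial membrane. ATP synthase lets the protons back through a ring of c subunits and uses the flow to make ATP. The subunits that hold the oxygen-reducing centre of complex IV, cytochrome b of complex III and part of the proton channel of ATP synthase are made from mitochondrial DNA. All members described here are encoded in the nucleus and imported as proteins. Several complex IV subunits come in isoforms from separate genes, of which one is used in most tissues and the other in muscle, lung or testis.

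The ring subunit of ATP synthase shows why isoforms are counted gene by gene. *Atp5g1*, *Atp5g2* and *Atp5g3* differ in the targeting sequence that is cut off on import, and their last 78 codons, which include the mature subunit c, translate to the same protein. The coding bases of that stretch are given below from the GENCODE vM21 transcripts (GRCm38), with capitals at the 63 of 234 positions where the 3 genes do not share 1 base.
Atp5g1: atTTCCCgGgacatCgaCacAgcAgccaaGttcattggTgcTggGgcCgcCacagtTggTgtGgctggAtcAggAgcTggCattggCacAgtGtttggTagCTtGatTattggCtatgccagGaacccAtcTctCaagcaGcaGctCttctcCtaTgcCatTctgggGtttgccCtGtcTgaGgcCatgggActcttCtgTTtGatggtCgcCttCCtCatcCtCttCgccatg
Atp5g2: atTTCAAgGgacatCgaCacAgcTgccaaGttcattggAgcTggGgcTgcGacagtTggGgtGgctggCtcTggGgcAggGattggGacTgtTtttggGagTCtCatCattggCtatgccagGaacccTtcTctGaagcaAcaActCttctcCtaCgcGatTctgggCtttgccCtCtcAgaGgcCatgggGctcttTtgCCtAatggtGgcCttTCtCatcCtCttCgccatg
Atp5g3: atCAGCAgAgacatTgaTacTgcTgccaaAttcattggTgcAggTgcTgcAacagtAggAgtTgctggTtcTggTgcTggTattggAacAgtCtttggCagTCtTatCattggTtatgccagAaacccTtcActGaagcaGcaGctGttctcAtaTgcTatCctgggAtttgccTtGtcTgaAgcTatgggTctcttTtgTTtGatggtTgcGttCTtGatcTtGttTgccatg
*Atp5g1* and *Atp5g2* were identical at 84.6% of these bases, *Atp5g1* and *Atp5g3* at 78.6%, and *Atp5g2* and *Atp5g3* at 77.4%. The counts come from the 3′ ends of transcripts. How reads shared with near-identical copies elsewhere in the genome were treated is not given in the sources used here, so the counts of genes with such copies are uncertain.

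The WT library held 70301390 UMIs in 9259 nuclei and the HET library 66176778 UMIs in 9022 nuclei, with medians of 5456 and 5646 UMIs per nucleus. The libraries shared 23 cell barcodes. The knock-in changes 1 amino acid of *Scn1a*, so the gene's level, which was 380 CPM in WT and 420 in HET, does not check the labels. The study's annotation divides the nuclei into 16 clusters, of which 12 had 30 or more nuclei of both genotypes and entered comparisons. Ribosomal protein genes made up a mean of 0.861% of the UMIs of a nucleus in WT and 0.472% in HET, whereas mitochondrially encoded genes made up 0.595% and 0.627%. The 3 choroid plexus markers *Ttr*, *Folr1* and *Kl* were also found outside the choroid plexus, and their sum was lower in HET in 12 of the 12 compared clusters, at 123 to 749 CPM in WT and 15.5 to 128 CPM in HET. In neuron.1 they summed to 235 and 30.6 CPM, in oligodendrocytes to 717 and 90.0 CPM and in astrocytes to 639 and 71.9 CPM. Most of this sum was *Ttr*, at 139 CPM in neuron.1 over both libraries, beside *Folr1* at 0.517 and *Kl* at 2.06 CPM. All 3 markers were lower in HET in neuron.1, oligodendrocytes and astrocytes, but only 1 of 3 in neuron.3, neuron.5 and neuron.7. The part of these library differences, and of cytoplasmic or free RNA captured with the nuclei, in every ratio given here was not tested.

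The members together were lower in HET. They held 192061 UMIs in WT, 2732 CPM or 20.7 per nucleus, and 116392 UMIs in HET, 1759 CPM or 12.9 per nucleus. This is a log2 ratio of −0.64 (−0.65 to −0.62). Of the 41 genes compared, 39 lay below 0, beside 12966 of all 21997 genes with at least 20 UMIs. By at least 1.5-fold, 28 members were lower and 0 higher, against 15.3% lower and 10.9% higher among all these genes. The median was −0.67 over the members and −0.09 over all genes. With the libraries scaled so that the median of well-covered genes was 0, a shift of −0.10, the members' median was −0.56 and 18 were lower, against 11.5% of all genes under that scaling. The 3 complexes had similar values, with a median of −0.69 and 6 of 8 genes lower for complex III, −0.76 and 12 of 16 for complex IV, and −0.61 and 10 of 17 for ATP synthase. Genotype and library cannot be told apart in these values.

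**Figure D1:**
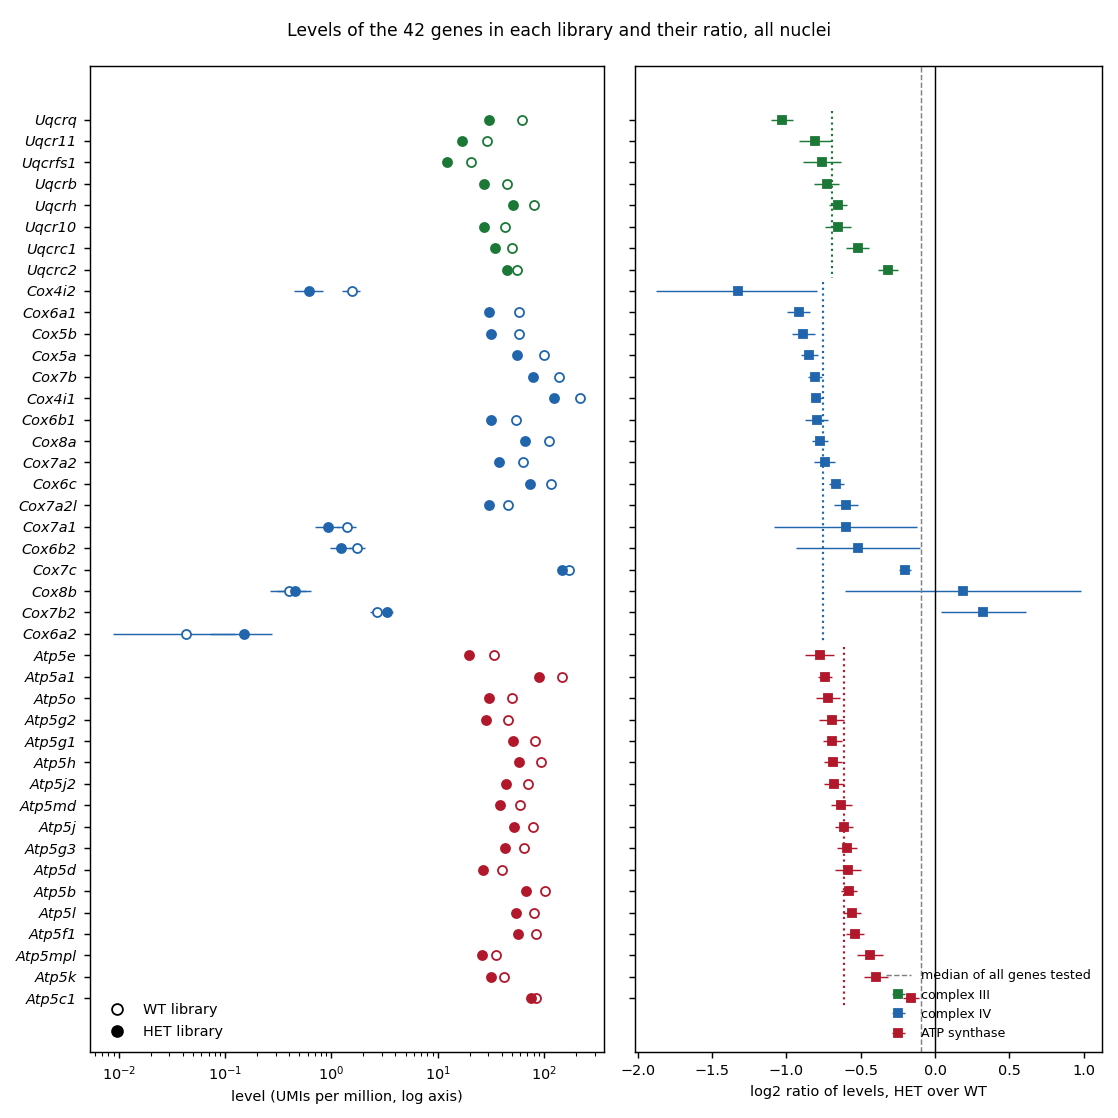
Levels of the 42 genes in the WT (open circles) and HET (filled circles) libraries on a log axis of CPM (left), and log2 ratios HET over WT of the 41 genes with at least 20 UMIs (right), grouped by complex. Bars are 95% counting intervals, dotted lines are the medians of the complexes and the dashed line is the median of all genes. The medians of the complexes lie between −0.76 and −0.61, and 2 genes of complex IV, *Cox8b* and *Cox7b2*, lie above 0.

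Within complex III, the core proteins had the ratios nearest 0. *Uqcrq*, an accessory subunit next to cytochrome b, was at 62.6 CPM in WT (4402 UMIs) and 30.7 CPM in HET (2029 UMIs), a log2 ratio of −1.03 (−1.11 to −0.95). *Uqcr11*, another small accessory subunit, was at 29.4 and 16.8 CPM (−0.81, −0.91 to −0.70). *Uqcrfs1*, the Rieske iron-sulfur protein that takes the electrons from ubiquinol, was at 20.7 and 12.2 CPM (−0.76, −0.89 to −0.64). All 3 intervals lie below the median of all genes. The core proteins sat at the other end, with *Uqcrc1* at 50.1 and 34.9 CPM (−0.52, −0.60 to −0.44) and *Uqcrc2* at 55.8 and 44.8 CPM (−0.32, −0.38 to −0.25). *Uqcrh*, the acidic hinge protein and the complex III member with most UMIs, was at 80.7 and 51.2 CPM (−0.65, −0.72 to −0.59). *Uqcr10* and *Uqcrb* lay between these values, at −0.65 and −0.73.

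Complex IV held the widest range. *Cox4i1*, the common form of the regulatory subunit 4 and the member with most UMIs, was at 218 CPM in WT (15351 UMIs) and 126 CPM in HET (8306 UMIs), a log2 ratio of −0.80 (−0.84 to −0.76). *Cox6a1*, the common form of subunit 6a, was at 57.9 and 30.6 CPM (−0.92, −0.996 to −0.84). *Cox5b* was at 58.9 and 31.9 CPM (−0.89, −0.96 to −0.81) and *Cox5a* at 99.8 and 55.5 CPM (−0.85, −0.91 to −0.79), both subunits that face the matrix. *Cox7b*, *Cox6b1*, *Cox8a*, *Cox7a2*, *Cox6c* and *Cox7a2l* lay between −0.81 and −0.60. *Cox7c* stood apart from these, at 171 CPM in WT (12036 UMIs) and 149 CPM in HET (9857 UMIs), a ratio of −0.20 (−0.24 to −0.16). Its interval lies above those of all the complex IV genes named before it. It is the second most counted member in WT and the most counted in HET.

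Among the ATP synthase genes, those of the catalytic head differed from each other. *Atp5a1*, the alpha subunit and the ATP synthase member with most UMIs, was at 149 and 89.2 CPM (10496 and 5906 UMIs, −0.74, −0.79 to −0.70). *Atp5b*, the catalytic beta subunit, was at 102 and 67.9 CPM (−0.58, −0.63 to −0.53). *Atp5e*, the epsilon subunit of the stalk, was at 33.8 and 19.7 CPM (−0.78, −0.87 to −0.68), the lowest ratio of the group. *Atp5c1*, the gamma subunit that turns inside the head, was at 84.4 and 75.4 CPM (5934 and 4988 UMIs, −0.16, −0.22 to −0.11), the ratio nearest 0. The intervals of *Atp5a1* and *Atp5c1* do not overlap. Alpha and gamma subunits are built into the enzyme at a fixed ratio of proteins, whereas these values are RNA counts. *Atp5o*, which ties the head to the outer stalk, was at 49.8 and 30.2 CPM (−0.72, −0.80 to −0.64). The 3 ring genes were close together, with *Atp5g2* at −0.70, *Atp5g1* at −0.69 and *Atp5g3* at −0.59. The small membrane subunits *Atp5k* and *Atp5mpl* were at −0.40 (−0.48 to −0.32) and −0.44 (−0.53 to −0.35), and the other members of the complex lay between −0.69 and −0.54.

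Within clusters, the medians over the members were all below 0, between −1.004 in epend.1 and −0.52 in neuron.7. The medians of all genes in the same clusters were between −0.16 and −0.02. In the largest cluster, neuron.1 with 5032 WT and 4079 HET nuclei, 27 of 41 members were lower and 0 higher (14.2% and 10.0% of all genes), with a median of −0.65. In oligodendrocytes 31 of 38 members were lower (15.2% of all genes), with a median of −0.71, and all 38 lay below 0. All genes had a median of −0.10 in that cluster. In astrocytes 26 of 38 were lower (18.4%), with a median of −0.72, beside neuronal markers that summed to 220 and 305 CPM there. *Cox5a* and *Cox7b* were lower by at least 1.5-fold in 12 of 12 clusters, and the interval of *Cox4i1* lay below 0 in 12 of 12. Between 14.2% and 28.7% of all genes were lower by 1.5-fold in any 1 of these clusters. The clusters come from the same 2 libraries, so they are not independent repeats of the comparison. *Cox7c* was lower by that fold only in endo of the 12 clusters compared, at 374 and 238 CPM (253 and 78 UMIs), and its ratios elsewhere were between −0.55 and 0.09.

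The clusters endo and epend.1 had the lowest medians. In endo, 33 of 37 members were lower (26.8% of all genes), with a median of −0.94, and 37 of 37 lay below 0. All genes had a median of −0.04 in endo. *Uqcrq* was at 204 CPM in WT (138 UMIs) and 58.1 CPM in HET (19 UMIs) there, a ratio of −1.81 (−2.59 to −1.12), the lowest *Uqcrq* ratio of the 12 clusters. *Cox7a2l* was at 192 and 58.1 CPM (−1.73, −2.51 to −1.03). The nuclei of endo were not the same mix in both libraries. The study's second label called 161 of 222 WT nuclei but 48 of 122 HET nuclei endothelial cells, the 3 endothelial markers summed to 5290 and 3781 CPM, and the 3 neuronal markers to 281 and 593 CPM. In the nuclei with the endothelial label the members were at 9324 CPM in WT and 5821 in HET, and their median was −0.73. The part of this difference in makeup was not tested. In epend.1, 25 of 32 members were lower (28.7% of all genes), with 129 WT and 45 HET nuclei and 401 member UMIs in HET. *Atp5mpl* had 25 and 1 UMIs in that cluster, so its ratio of −3.74 has an interval from −9.10 to −1.13. In fibro 22 of 36 members were lower (17.5% of all genes) and in micro 18 of 37 (16.3%), with medians of −0.64 and −0.56. The second label called 108 of the 405 micro nuclei microglia, and in these the median was −0.81 over the 21 members with enough UMIs.

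Among the smaller neuronal clusters, 4 of 5 had medians nearer to 0 than neuron.1. In neuron.2, 26 of 37 members were lower (17.7% of all genes) and the median was −0.69. In neuron.3, 16 of 36 were lower (14.8%) with a median of −0.56, and in neuron.4, 17 of 37 (14.9%) with −0.55. In neuron.5, a cluster with granule cell genes, 16 of 36 were lower (18.9%) with −0.54, from 42 WT and 332 HET nuclei. The oligodendrocyte markers *Mog*, *Mag* and *Mbp* summed to 547 CPM in WT and 1038 CPM in HET in that cluster, and the part of this difference was not tested. In neuron.7, which holds the serotonergic genes, 12 of 31 were lower (19.6%) with −0.52. Few members went the other way. In neuron.5, *Atp5d*, the delta subunit of ATP synthase, was at 19.1 and 36.0 CPM (3 and 46 UMIs) and *Uqcr11* at 19.1 and 31.3 CPM (3 and 40 UMIs), and both intervals include 0. In neuron.7, *Atp5c1* was at 53.2 and 79.9 CPM (27 and 31 UMIs, 0.59, −0.21 to 1.39). These 3 and *Cox7b2*, described further on, were the members past 1.5-fold higher in any of the 12 clusters, where between 6.96% and 20.2% of all genes were.

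**Figure D2:**
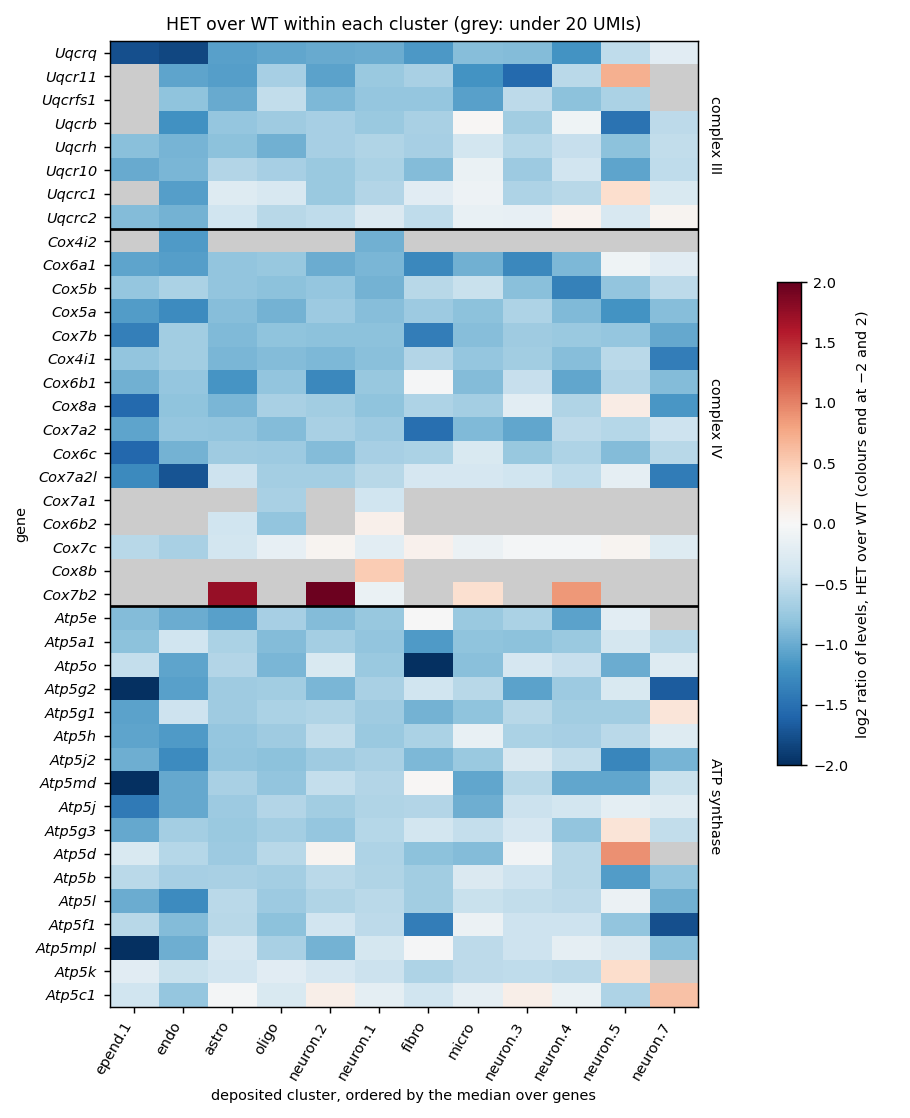
Log2 ratio HET over WT of each member (rows, grouped by complex) in each of the 12 compared clusters (columns, ordered by median), in blue for lower and red for higher in HET, with colours ending at −2 and 2. Grey cells had fewer than 20 UMIs. Blue fills most rows, the *Cox7c* and *Atp5c1* rows are pale, and the *Cox7b2* row passes 1.5-fold higher in neuron.2, astro and neuron.4.

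The summed level of the members varied more between clusters than between the libraries. Over both libraries they summed to 7023 CPM in endo, 4382 CPM in epend.2, 3212 CPM in astro, 3122 CPM in fibro and 2679 CPM in oligo. The neuronal clusters other than neuron.5 and neuron.9 were lower, from 2161 CPM in neuron.2 down to 1421 CPM in neuron.8. In each of the 12 compared clusters the WT level was above the HET level, from 8274 and 4438 CPM in endo to 1960 and 1255 CPM in neuron.7. The order of clusters was similar in both libraries, apart from epend.1, which came further down in HET. The mix of complexes was similar in the 12 compared clusters. In WT complex III made up 12.6% to 15.3% of member UMIs, complex IV 40.2% to 45.9% and ATP synthase 41.1% to 46.2%. The same ranges in HET were 11.5% to 16.4%, 39.3% to 44.9% and 42.3% to 47.8%. The mean percent of ribosomal protein UMIs was lower in HET in each of these 12 clusters, 2.91 and 1.32 in endo and 0.643 and 0.363 in neuron.1. The mean percent of mitochondrial UMIs was lower in HET in endo (2.08 and 1.54) and epend.1 (4.71 and 4.19) and higher in HET in the other 10, such as 0.321 and 0.362 in neuron.1. Across the 12 clusters of the WT library, the summed member level and the ribosomal percent had a Pearson correlation of 0.98 and a Spearman correlation of 0.85. In the HET library these were 0.94 and 0.78. With the mitochondrial percent in place of the ribosomal one, the Pearson correlation was 0.41 in WT and 0.20 in HET. The Spearman correlation with it was 0.85 in WT, as for the ribosomal percent, and 0.69 in HET. The points share each library's depth and counts, and the correlations are descriptions.

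**Figure D3:**
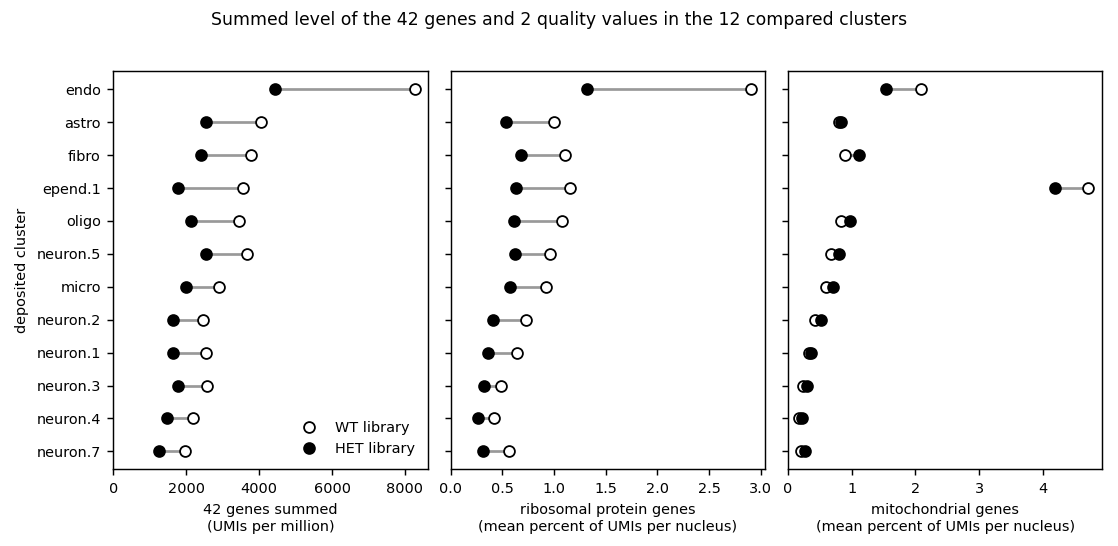
Summed level of the 42 genes in CPM (left), mean percent of UMIs per nucleus from ribosomal protein genes (middle) and from mitochondrial genes (right) in the 12 compared clusters, for the WT (open) and HET (filled) library. The summed level and the ribosomal percent are lower in HET in every cluster shown, while the mitochondrial percent is lower in HET in endo and epend.1 and higher in the other 10.

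Clusters neuron.9 and micro matched their labels in part only, as endo did. The members made up 37137 CPM of neuron.9, which came from 35 WT and 2 HET nuclei, with a median of 2034 UMIs in WT. Its nuclei held a mean of 6.96% mitochondrial and 10.5% ribosomal protein UMIs. Among the neuronal markers *Snap25* was at 1423 CPM there, above the other neuronal clusters, but *Rbfox3* at 53.9 CPM and *Syt1* at 334 CPM were below them, while *Ttr* of the choroid plexus was at 4668 CPM. With 2 HET nuclei it entered no comparison. In micro, the microglial markers *Cx3cr1*, *Csf1r* and *P2ry12* were at 202, 144 and 245 CPM, beside *Rbfox3* at 299 CPM and *Syt1* at 665 CPM. Leaving out neuron.9 together with the other uncompared clusters and neuron.5 moved none of the 41 ratios outside its interval.

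Scarce isoforms marked particular clusters. *Cox4i2*, the form of subunit 4 known from lung and for its response to low oxygen, had 109 WT and 41 HET UMIs, and 72 of these 150 came from endo, a cluster with 0.735% of all UMIs. It stood at 71.8 CPM in endo and at most 1.59 CPM in any other cluster. There it made up 11.3% (8.95 to 14.0) of the UMIs of both subunit 4 genes, against at most 0.926% elsewhere. Markers of pericytes, the contractile cells on capillaries, divided the endo nuclei further. The 104 nuclei with at least 3 of the 4 markers *Pdgfrb*, *Rgs5*, *Abcc9* and *Kcnj8* held 60 of the 72 UMIs, 159 CPM (121 to 205). The 95 nuclei with 1 or 2 of them held 12, and the 145 nuclei with none held 0, where a floor of 3 UMIs allows up to 9.09 CPM. The limit of 3 pericyte markers was chosen after these values were seen. The endothelial markers *Flt1*, *Cldn5* and *Pecam1* summed to 4320 CPM in the 104 nuclei, 6235 CPM in the 95 and 4059 CPM in the 145. The split therefore does not part pericytes from endothelial cells. Nuclei that the second label calls endothelial held 49 of the 59 WT and 8 of the 13 HET *Cox4i2* UMIs. The share within the subunit 4 pair was 11.9% (9.22 to 15.1) in WT and 9.09% (4.93 to 15.04) in HET. The level in endo was 87.3 CPM in WT (59 UMIs) and 39.7 CPM in HET (13 UMIs), a ratio of −1.14, beside summed pericyte markers of 2268 and 1666 CPM, with 2 of the 4 lower in HET. The part of this marker difference was not tested.

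*Cox6b2*, a form of subunit 6b known from testis, was spread differently. It held 204 UMIs, 123 in WT and 81 in HET (−0.52, −0.94 to −0.10). In epend.2, which carries the choroid plexus markers *Ttr*, *Folr1* and *Kl*, it made up 24 of the 59 subunit 6b UMIs, 40.7% (28.1 to 54.3), at 57.1 CPM. All 24 came from the 108 WT nuclei, and HET had 6 nuclei in that cluster. In fibro it made up 23.6% (14.4 to 35.1), with 12 of 41 UMIs in WT and 5 of 31 in HET. In astro its share was 8.66% (5.87 to 12.2) and in neuron.1 2.35% (1.87 to 2.90). The intervals of epend.2 and fibro overlap each other and lie above that of neuron.1.

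*Cox7b2*, another form known from testis, was the member furthest above 0. It was at 2.69 CPM in WT (189 UMIs) and 3.37 CPM in HET (223 UMIs), a ratio of 0.33 (0.04 to 0.61), below 1.5-fold. In astrocytes it was at 4.26 CPM in WT (9 UMIs) and 14.2 CPM in HET (37 UMIs), a ratio of 1.74 (0.66 to 2.98), where 8.38% of all genes were higher. In neuron.2 it was at 1.95 and 7.56 CPM (7 and 15 UMIs, 1.96, 0.58 to 3.49) and in neuron.4 at 3.95 and 7.20 CPM (8 and 37 UMIs, 0.87, −0.26 to 2.18), where 6.96% and 10.4% of all genes were higher. In micro, where 9.69% of all genes were higher, it was at 9.05 and 11.3 CPM (10 and 16 UMIs, 0.32, −0.91 to 1.62). The intervals of neuron.4 and micro include 0. In neuron.1, with most of its UMIs, it was at 2.96 and 2.71 CPM (143 and 110 UMIs, −0.13, −0.50 to 0.24). Its share of the subunit 7b pair in astrocytes was 2.59% (1.19 to 4.87) in WT and 14.1% (10.1 to 18.9) in HET, and 34 astrocyte nuclei held its 46 UMIs, with at most 3 in a nucleus. In micro its share was 8.81% (5.84 to 12.6), but none of the 28 subunit 7b UMIs in nuclei that the second label also calls microglia was *Cox7b2*, which allows a share of up to 10.7%. Oligodendrocytes had 3 of 1248.

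The muscle forms were near the limit of detection. *Cox7a1* had 98 WT and 61 HET UMIs, 1.28% (1.09 to 1.50) of the UMIs of *Cox7a1*, *Cox7a2* and *Cox7a2l*, and 2.23% (1.90 to 2.60) of those of *Cox7a1* and *Cox7a2* alone. Over the 3 genes its share ran from 0% in micro and neuron.7 to 4.39% (1.44 to 9.94) in fibro. *Cox8b* had 28 and 30 UMIs, 0.47% (0.357 to 0.607) of the subunit 8 pair, and 16 of the 58 lay in neuron.3, where its share was 4.71% (2.71 to 7.53), with 5 of 118 UMIs in WT and 11 of 222 in HET. Neuron.3 held 3.81% of all UMIs. *Cox8b* was above 0 over all nuclei (0.19, −0.61 to 0.98) but at −0.10 with equal cluster weights and −0.49 with the mean over nuclei. *Cox6a2* made up 13 of 6112 subunit 6a UMIs, and 7 of the 13 came from oligodendrocytes.

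**Figure D4:**
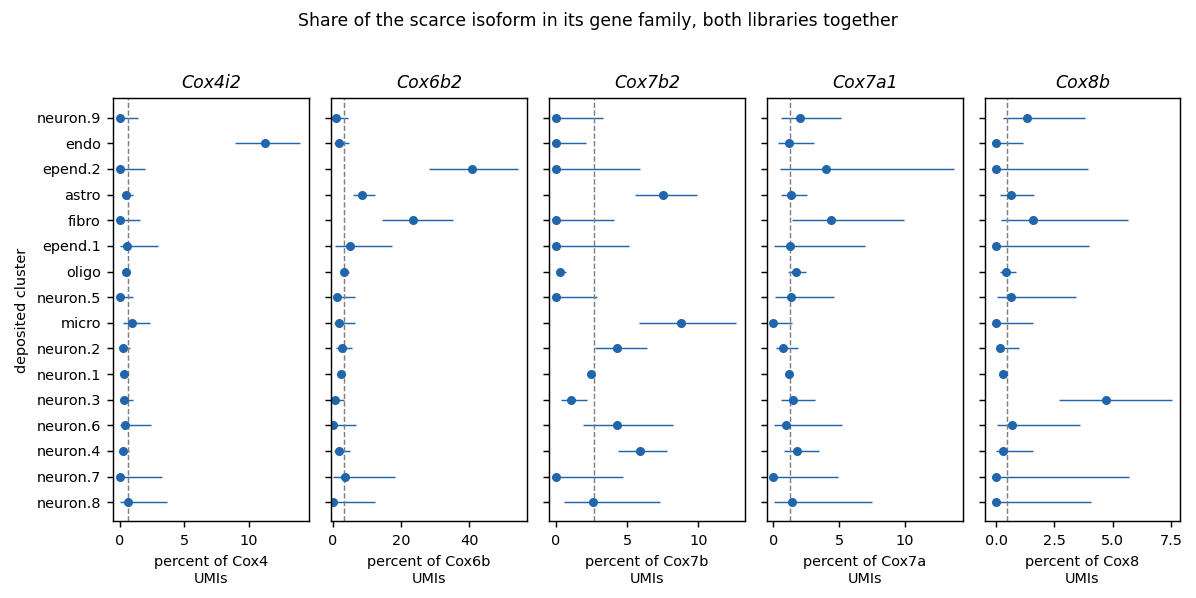
Share of the scarce isoform in the UMIs of its gene family in all 16 clusters, both libraries together, for *Cox4i2*, *Cox6b2*, *Cox7b2*, *Cox7a1* (in a family that includes *Cox7a2l*) and *Cox8b*, with clusters ordered by the summed level of the 42 genes. Bars are 95% Clopper-Pearson intervals and dashed lines the share over all nuclei. *Cox4i2* stands at 11.3% in endo and *Cox6b2* at 40.7% in epend.2 and 23.6% in fibro.

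The 3 ring genes printed above were used in different proportions. Over all nuclei *Atp5g1* made up 42.6% (41.96 to 43.3) of their 21714 UMIs, *Atp5g3* 33.9% (33.3 to 34.6) and *Atp5g2* 23.4% (22.9 to 24.0). *Atp5g1* made up 51.3% (47.7 to 54.8) of the ring UMIs in neuron.4 and 55.8% (47.1 to 64.2) in epend.2, and 36.1% (34.2 to 37.98) in oligodendrocytes and 30.4% (26.3 to 34.7) in endo. *Atp5g2* was 33.7% (29.5 to 38.1) in endo and 16.2% (13.7 to 19.0) in neuron.4. Over all nuclei the shares were close in both libraries. *Atp5g1* made up 43.0% in WT (42.1 to 43.8) and 42.03% in HET (40.9 to 43.1), *Atp5g2* 23.7% and 23.1%, and *Atp5g3* 33.4% (32.6 to 34.2) and 34.9% (33.9 to 36.0). Within some clusters the differences were larger. In neuron.7 *Atp5g1* made up 30.9% (20.2 to 43.3) in WT and 51.4% (34.4 to 68.1) in HET, and in neuron.3 *Atp5g2* made up 24.8% (20.03 to 30.1) and 17.8% (14.3 to 21.7). The WT and HET intervals overlapped in each of the 36 pairs of ring gene and compared cluster.

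Genes that work with the members were lower to different degrees. Of 5 partner genes whose symbols do not match the rule, 4 were lower by at least 1.5-fold, with a median of −0.76. They ran from the ATP synthase inhibitor *Atpif1* (118 and 66.5 CPM, −0.83) to the cytochrome *Cyc1* of complex III (42.9 and 32.6 CPM, −0.40). The electron carrier *Cycs* was at −0.80, and the complex IV subunit *Ndufa4*, which the complex I list also holds by its name, at −0.76. Genes with complex I subunit symbols had a median of −0.62, with 23 of 37 lower. The lowest was *Ndufa4l2* (3.39 and 0.756 CPM, 238 and 50 UMIs, −2.16, −2.63 to −1.72). It is named as a *Ndufa4*-like gene and is in the list by its symbol only. The next lowest was *Ndufb8* (76.7 and 33.0 CPM, −1.22), and the highest was *Ndufs4* (131 and 117 CPM, −0.17). By contrast, complex II, which is part of the citric acid cycle, had a median of −0.23 with 0 of 4 lower. Its *Sdhb* was at −0.57 (46.1 and 31.1 CPM) and its *Sdhd* at 0.09 (12.6 and 13.4 CPM). Ribosomal protein genes had the lowest median, −0.85, with 72 of 82 lower, from *Rps16* (−1.49) to *Rpl4* (−0.19).

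Assembly factors were nearer to all genes than the subunits were. Of 26 assembly genes of complex IV, 7 were lower, with a median of −0.40. *Sco2*, which delivers copper, was at 9.72 and 4.90 CPM (−0.99), and *Cox18*, which inserts subunits into the membrane, at 12.9 and 15.5 CPM (0.26). Of 6 assembly genes of complex III, 2 were lower, with a median of −0.26, from *Uqcc2* (−0.85) to *Uqcc1* (−0.02). Of 5 for ATP synthase, 1 was lower, with a median of −0.16, from *Tmem70* (−0.62) to *Atpaf1* (0.00). Vacuolar ATPase, a proton pump of other membranes, had 4 of 18 genes lower and a median of −0.22, from *Atp6v1f* (−0.83) to *Atp6v1c1* (0.10). Transcription factors and coactivators known to act on respiratory genes had a median of −0.09, beside −0.09 over all genes. Of these 12, *Esrra*, an orphan nuclear receptor, was lower, at 47.8 and 20.2 CPM (3360 and 1338 UMIs, −1.24, −1.33 to −1.15), and *Tfb1m* was highest (0.31, 0.10 to 0.51). *Nrf1* was at −0.10, *Gabpa* at 0.26 and *Ppargc1a* at 0.13. These lists are descriptions by count and median, read against the 15.3% of all genes that were lower. They also differ in gene length from start to end. The median length was 6.75 kb for the members, 7.8 kb for complex I, 3.98 kb for the partner genes and 3.27 kb for ribosomal protein genes. It was 9.54 kb for complex IV assembly, 17.8 kb for ATP synthase assembly and 20.7 to 28.4 kb for the other lists. The part of this length difference was not tested.

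The members are short genes, and short genes as a whole were lower in HET. The median span from start to end was 6.75 kb for the members and 20.3 kb for all genes. Other genes of 5 to 10 kb had a median ratio of −0.25 and 23.6% of them were lower, whereas the 14 members of that span had a median of −0.68 and 14 of 14 lay below −0.25. Of the 8 members of 2.5 to 5 kb, 8 lay below the other genes' median of −0.30, and of the 8 under 2.5 kb, 6 lay below −0.35. Among the 39 members compared that have a GENCODE position, span and ratio had a Spearman correlation of 0.10 and a Pearson correlation of 0.22 on a log span, and −0.07 for the latter without *Cox7b2*. *Cox7b2*, at 105 kb, was the longest, and genes over 100 kb had a median of 0.11. *Atp5c1* and *Uqcrc2*, at 24.5 and 24.3 kb, were the longest of the rest and lay closer to 0 than most, as did *Cox7c* at 2.09 kb.

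**Figure D5:**
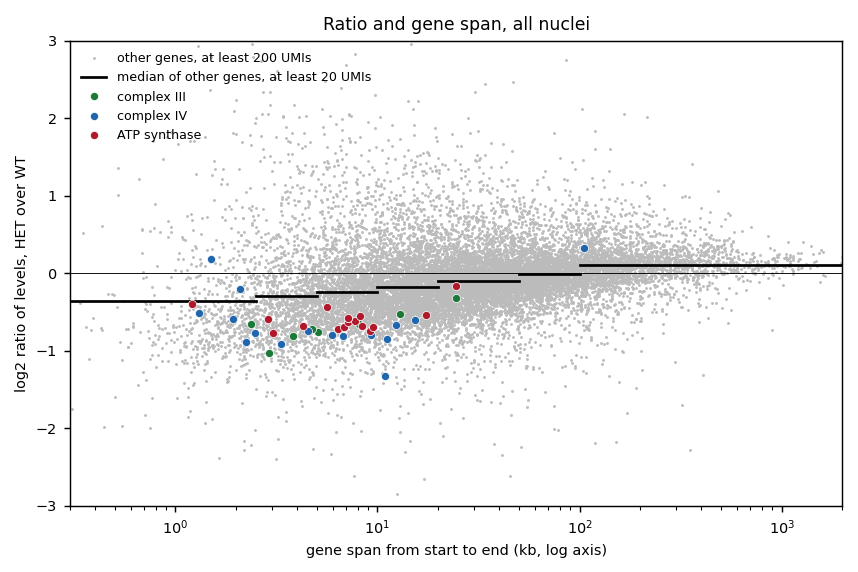
Log2 ratio HET over WT against gene span on a log axis in kb, for other genes with at least 200 UMIs (grey) and the 41 members compared (coloured by complex), with 11 grey genes outside the ratio axis and 8 outside the span axis. Black lines are the medians of other genes in each range of span, from −0.35 under 2.5 kb to 0.11 over 100 kb, and most coloured points lie below them.

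Some members share their locus with another gene. *Cox6c* overlaps *Vps13b* on the other strand, which had 23297 WT and 24814 HET UMIs, and *Cox5a* overlaps a divergent noncoding gene on the other strand with 1037 and 571 UMIs. *Atp5j* overlaps *Gabpa*, *Atp5d* overlaps *Cbarp* and *Cox4i1* overlaps *Emc8* in the same way. On the same strand, *Cox4i1* overlaps the annotated gene *Gm20388* and *Cox7c* overlaps *Gm22574*, neither of which is in the count table. The part of these overlaps in the counts was not tested. Whether intronic reads were counted is not given in the sources used here.

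Promoters of the members were set beside the ratios because respiratory genes are known targets of NRF1 and GABPA. RefSeq promoter windows of 250 bases before and 50 after the start were found for 33 members (GRCm38.p6). The NRF1 core GCATGCG, on either strand, was in 18.2% of them and in 3.64% of all 27018 windows. The ETS core CCGGAAG bound by GABPA was in 30.3% and 9.12%, the estrogen-related receptor motif AAGGTCA in 12.1% and 4.66%, and the YY1 motif ATGGCGG in 3.03% and 4.19%. The median share of G and C bases was 55.7% in the windows of the members and 52.7% in all windows. The part of this difference in the motif shares was not tested. No motif contains another, and a match is a run of letters, not a bound site. *Cox6a1* and *Cox7c*, the lowest and the highest ratio among complex IV genes other than the scarce isoforms, are shown, each as its longest stretch before the start that lies in no annotated exon, with the NRF1 core in capitals. The stretch of *Cox6a1* (−0.92) covers chr5:115348982-115349129 on the minus strand, and that of *Cox7c* (−0.20) chr13:86046905-86047045 on the minus strand. Counted from the RefSeq start, the first runs from −171 to −24 and the second from −250 to −110. The 2 stretches thus show different parts of their windows.
Cox6a1: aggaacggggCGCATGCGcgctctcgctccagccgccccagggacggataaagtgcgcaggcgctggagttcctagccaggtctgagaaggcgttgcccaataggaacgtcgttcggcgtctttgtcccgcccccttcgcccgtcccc
Cox7c: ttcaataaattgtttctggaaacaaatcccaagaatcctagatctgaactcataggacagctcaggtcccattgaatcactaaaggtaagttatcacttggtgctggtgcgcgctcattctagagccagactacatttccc
The core is a near palindrome, so its capitals in *Cox6a1* cover 2 overlapping matches, 1 on each strand. The whole window of *Cox6a1* also holds the ETS core. None of the 4 motifs was found in the window of *Cox7c*, which says only that these letters are not there. Of the 6 members with the NRF1 core, *Cox6a1* (−0.92) and *Uqcr11* (−0.81) had lower ratios than the median of the members, as did *Atp5g2* (−0.70), whereas *Atp5l* (−0.56), *Uqcrc1* (−0.52) and *Atp5k* (−0.40) lay above it.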

How the data were processed

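The authors deposited raw UMI counts per gene and nucleus, without normalization, from 10x Chromium 3′ v3.1 libraries. Reads were aligned with Cell Ranger, whose version is not given in the sources used here, to its default mm10 reference, and nuclei were filtered in Seurat 4.1. Nuclei with few genes or a high share of mitochondrial UMIs, doublets, and the mitochondrial and hemoglobin genes were removed by the authors. The deposited percent values give mitochondrial and ribosomal protein UMIs per nucleus. A doublet score was also deposited, without the name of its method. Clusters and the second label were used as deposited.

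UMIs were summed per library or cluster and scaled to CPM, with exact Poisson intervals, exact conditional intervals for ratios and Clopper-Pearson intervals for shares, all at 95%. Genes needed 20 UMIs, and clusters 30 nuclei per library. The limit given for a count of 0 is 3 counts. Named were isoform family members, the member with most UMIs and the 3 lowest and 3 highest ratios of each complex, and the lowest and highest gene of each related list, at 200 UMIs or more. Other genes and clusters were named after their values were seen. Members, lists and the rule were chosen with earlier results of these data known. Positions came from GENCODE vM21 for 40 members and from RefSeq (GRCm38.p6) for 2, with the same assembly as mm10. The ratios were tested on simulated counts. The work used scipy 1.17.1 for the intervals, with numpy 2.4.6, pandas 2.3.3 and Python 3.11.15, and matplotlib 3.10.9 for the plots. Alternatives in scaling, weighting, nuclei, gene minimum, fold and labels were tried.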

Additional observations from a re-analysis of the deposited data

How the results depend on the processing

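No paired analysis was possible because each genotype had 1 library. For the same reason no replicate could be left out, and the differences have no replicate check. Each median kept its sign under its alternatives, over all nuclei between −0.79 and −0.56 for all members, and no member with an interval clear of 0 changed direction. Scaling by the median of ratios gave −0.56 for all members, −0.59 for complex III, −0.65 for complex IV, −0.51 for ATP synthase and −0.55 in neuron.1, with 18 members lower, against 11.5% of all genes. The mean over nuclei of CPM gave −0.79, −0.82, −0.88, −0.72 and −0.73 in the same order. Of the 41 ratios, 7 stayed within their intervals under the median of ratios and 14 under the mean over nuclei. In nuclei with a mitochondrial share at or below the median 33 did, against 41 with equal cluster weights. Without the 5% highest doublet scores the median of all members was −0.72. In a separate alternative over all nuclei, the mean over complex IV members in place of their median was −0.62. At a fold of 2, 2 members were lower, *Uqcrq* and *Cox4i2*, against 4.94% of all genes, and at 5/4-fold 36 were lower and 1, *Cox7b2*, was higher, against 30.3% and 18.2% of all genes. One member was also higher at 1.5-fold in nuclei with a mitochondrial share at or below the median (*Cox8b*), and with a minimum of 1 UMI in each library (*Cox6a2*). The *Cox7b2* share in astrocytes was 2.59% in WT alone and 14.1% in HET alone, and in microglia 0% where both labels agreed. In the HET library alone, epend.2 gave a *Cox6b2* share of 0% from 1 UMI and an *Atp5g1* share of 75.0% from 4 UMIs, and *Atp5g3* made up 34.9% over all nuclei. With *Cox7a2l* left out of its family, an alternative chosen after seeing the data, the *Cox7a1* share was 2.23%.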
